A study of Mus musculus with 12 samples.

Results

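The genes described here are those that the second of the study's 2 bead array chips measured under a symbol not found among the symbols of the deposited table that joins both chips. Thalamus of Gbx2 knockout (KO) embryos was compared with thalamus of wild-type (WT) embryos, both of strain CD1 at E12.5, on KO replicates 3 and 4 against WT replicates 3 and 4. A probe was kept when its detection score exceeded 0.95 on at least 2 of these 4 arrays. Of 15014 probes outside the joined symbols, 6811 passed, and they carry 5535 of the 36694 symbols in the series, or 5342 genes after symbols were updated. The labels name no allele, number of pooled embryos or litter for either genotype, and they set aside 1 KO array and 1 WT array, both numbered 5, as outliers. The tissue was microdissected, so each array averages all cells of the piece, and fewer cells of a type cannot be told apart from less RNA per cell. Nothing in the labels says that replicates came from separate embryos, so the p-values measure the spread between these arrays.

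The thalamus forms in the caudal diencephalon between the prethalamus and the epithalamus, which gives rise to the habenula. Gbx2 encodes a homeobox transcription factor that is switched on as thalamic neurons leave the cell cycle, and caudal thalamic neurons later send their axons to the cortex. The series title sets the work around Gbx2 keeping thalamic neuron identity and holding back habenular features. Gbx2 itself, which lies among the joined symbols, had signals of 12640.5 and 14388.7 on the KO arrays, against 66719.6 and 57517.7 on the WT arrays, where the brightest probe of an array lay between 72270.9 and 73550.2. Its probe fell by 1.93 on the log2 scale (limma adjusted p = 0.0438). On the first chip, with replicates 1 and 2 of each genotype, the drop was smaller. There Gbx2 had log2 levels of 13.08 and 12.81 in KO against 13.81 and 13.36 in WT, a difference of -0.64. Between 44.8% and 46.4% of all chip 2 probes were detected on these 4 arrays. Thalamic Tcf7l2, Lhx9 and Slc17a6 were bright on every array (log2 levels of 12.56 or more), whereas telencephalic Emx1 and Dlx2, hypothalamic Nkx2-1 and midbrain En1 were detected on none.

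The working description of these genes as present on chip 2 only went against the files. Of the 6811 probes, 3599 stand in the joined table under another symbol, and 849 more belong to a gene that is joined under another symbol, as seen once names were updated through RefSeq assembly GRCm38.p6. The remaining 2363 probes, for 2072 genes, were measured on chip 2 only by both probe and gene name. Symbols that a spreadsheet had stored as dates, and that no accession resolved, could not be checked by name and are counted among these 2363. Pth2 has no probe under that symbol and was found under its synonym Tifp39. The probes shown next are some of the joined probes that the results turn on, and they show that 1 oligonucleotide stands under different symbols in the tables. The Irx2 probe is listed as LOC100045612 in the joined table, and the others stand on chip 2 as 1110017D07Rik and LOC382995 (both Pdzrn4), scl0002956.1_592 (Hs6st2), E130306M17Rik (Samd5) and Tmem46 (Shisa2). The identifiers of the joined table encode each probe's 50 bases with a check sum that held for every one, and bases 1 to 30 of each probe are given.
Irx2 probe, chromosome 13: gtcccctttctatggcaactacacaaacta
Pdzrn4 probe 1110017D07Rik, chromosome 15: accacatgccgtatcttgtcttatacatga
Pdzrn4 probe LOC382995, chromosome 15: tcgagctgtgtcgtgttagcagtcaagaga
Hs6st2 probe, chromosome X: gcagcgaagctaagtgtcagggacgtgcaa
Samd5 probe, chromosome 10: ccaccctttcactactcagaagtacagcac
Shisa2 probe, chromosome 14: cgctgtcactgggacatgaggtggcactta

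Of the 6811 probes, 5784 were detected on all 4 arrays, 87 on both KO arrays and no WT array, and 160 on both WT arrays and no KO array. A further 807 probes detected on 1 array and 7396 detected on none were left out. The 512 probes just inside the limit, detected on 2 arrays, had a median signal of 172, and the 807 just outside it had a median of 160. Levels below are normalized log2 intensities, on which the faintest detected probe lay between 5.76 and 5.87. The difference given is KO minus WT with its standard error (SE), from limma over all 21369 chip 2 probes tested, with Benjamini-Hochberg adjustment over all of them. In that fit each probe's variance is drawn toward that of all probes tested (2 residual and 5.72 prior degrees of freedom). The SE is therefore not that probe's own array spread alone.

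At an adjusted p under 0.05, 33 member probes differed between the genotypes, 7 higher (0.103%) and 26 lower (0.382%) in KO. They stand for 29 genes, 7 higher and 22 lower. That is 0.485% of the member probes, against 0.524% of all chip 2 probes tested, so the share called was close to that of the chip as a whole. Of all chip 2 probes, 0.0983% were called higher and 0.426% lower. Among the 2363 probes on chip 2 only, 17 were called (0.719%), 3 higher (0.127%) and 14 lower (0.592%). Fitted differences against a genotype that did not detect the probe are bounds and are given below as "at least" folds. Such probes passed the detection rule through the other genotype alone. With detection required on all 4 arrays, 2 member probes were called higher and 9 lower. The KO and WT arrays did not overlap for any of the 33 probes, which their selection by a large difference relative to the spread nearly ensured. Leaving out 1 array therefore cannot change the sign of any of them. No call held without KO replicate 3: then 0 member probes passed, the lowest adjusted p was 0.0796, 615 had an unadjusted p under 0.05, and all 33 kept their sign. Leaving out KO replicate 4 gave 34 higher and 46 lower members. Leaving out WT replicate 3 gave 106 and 84, and WT replicate 4 gave 23 and 37. With cyclic loess in place of quantile normalization 19 probes were higher and 37 lower, which moved the share of higher calls to 33.9% from 21.2%, and with an offset of 50 it was 38.8%.

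**Figure D1:**
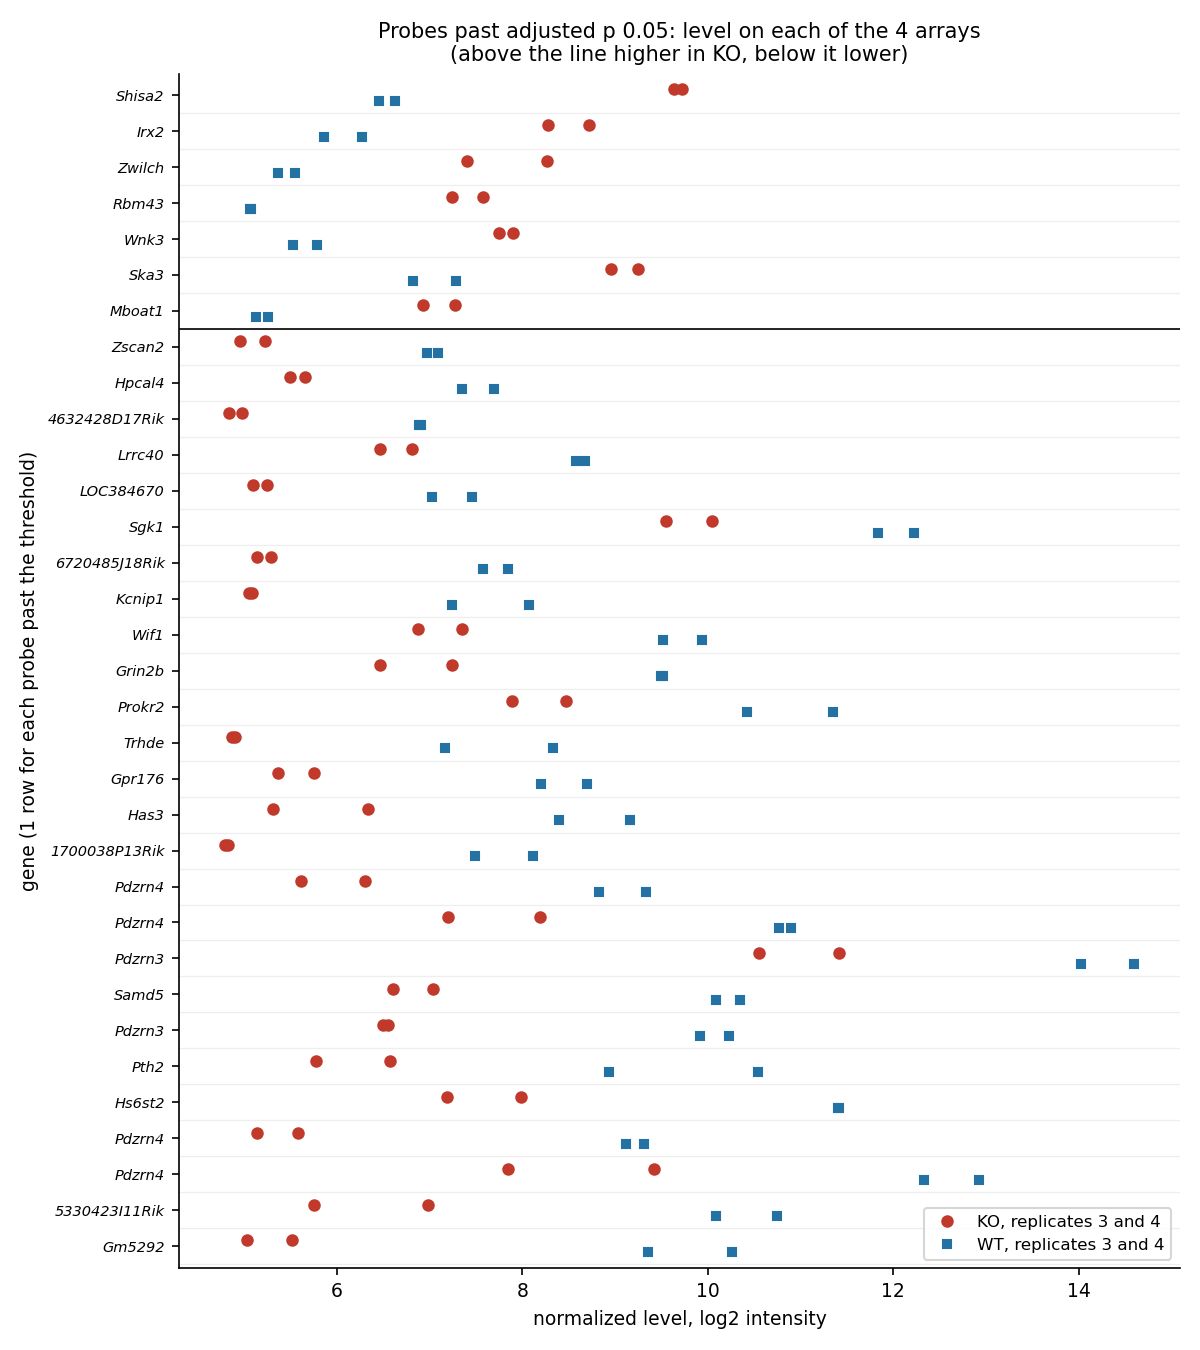
Normalized log2 intensity (horizontal axis) of each of the 33 member probes past adjusted p 0.05, 1 row for each probe. Circles are the 2 KO arrays and squares the 2 WT arrays. The 7 rows above the line were higher in KO and the 26 below it were lower. In no row do the genotypes overlap, which the selection of the rows nearly ensured.

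Pdzrn3, Pdzrn4 and Prokr2, which mark caudal thalamic neurons, fell in KO. The list of postmitotic caudal thalamus genes has 7 measured members here, and all 7 had a negative difference, with a median of -2.71, against a median of -0.04 over the 5342 member genes. These 3 of the 7 passed the test. Over all of chip 2 the same list holds 26 genes with a median of -0.36, of which 8 were positive and 7 were called. The list and its members were chosen with earlier results of these data known.

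Pdzrn3 encodes a ubiquitin ligase with a RING finger and PDZ domains. Its brighter probe had log2 levels of 10.55 and 11.41 on the KO arrays, against 14.60 and 14.02 on the WT arrays. This was among the brightest of the called probes, and it fell by 3.33 (SE 0.38, limma adjusted p = 0.0194). Its dimmer probe was at 6.55 and 6.50 in KO, close to the faintest detected level, against 9.92 and 10.23 in WT. That probe fell by 3.55 (SE 0.29, limma adjusted p = 0.00603), and the remaining Pdzrn3 probe was detected on no array.

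Pdzrn4, a close relative of Pdzrn3, has 5 member probes, of which no pair shares a run of 15 bases. The brightest was at 7.84 and 9.42 in KO, against 12.33 and 12.92 in WT. It fell by 3.99 (SE 0.51, limma adjusted p = 0.0278), and the KO arrays differed from each other by more than the WT arrays did. Another 3 of the probes also passed, and those detected in KO were lower by 3.13 and 3.14. The remaining one was undetected on both KO arrays (5.14 and 5.58), against 9.31 and 9.12 in WT, which is at least 10.5-fold lower. The fifth probe lay near the detection limit throughout, at 6.04 and 6.13 in KO against 6.57 and 6.27 in WT, with a difference of -0.33 (adjusted p = 0.588).

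**Figure D2:**
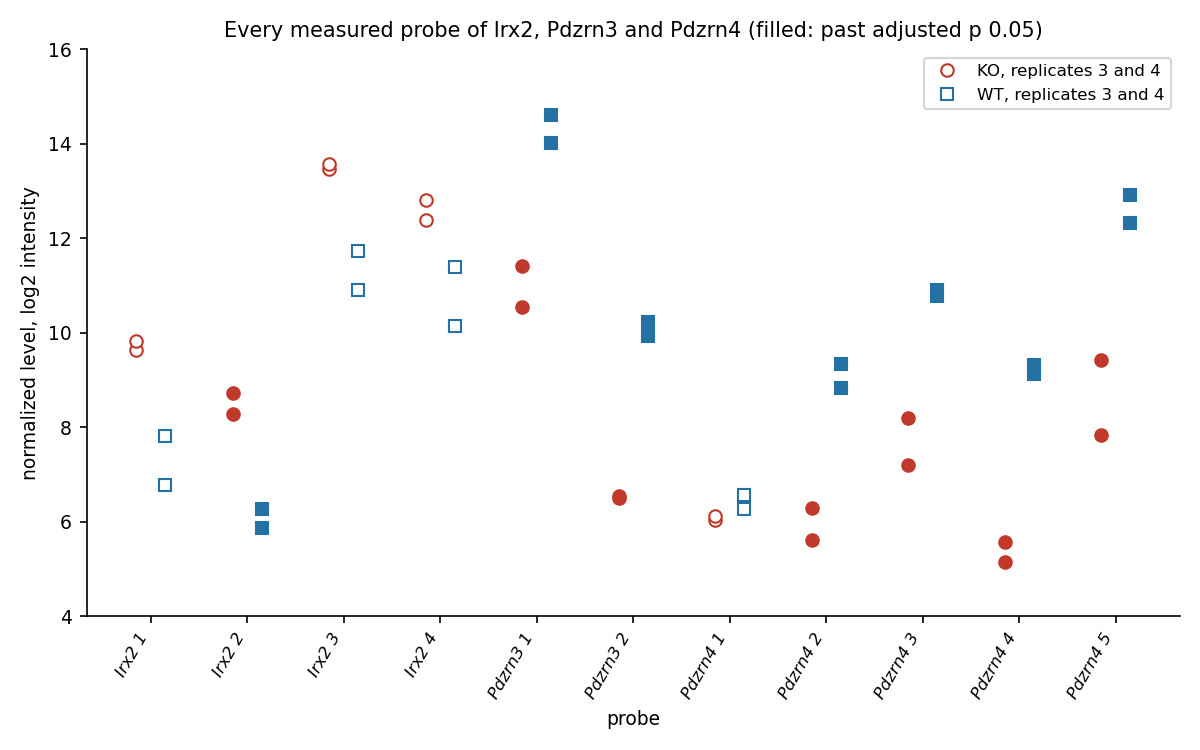
Normalized log2 intensity (vertical axis) of each measured probe of Irx2, Pdzrn3 and Pdzrn4, with the 2 KO arrays as circles left of the 2 WT arrays as squares. Filled symbols mark probes past adjusted p 0.05: 1 of 4 for Irx2, 2 of 2 for Pdzrn3 and 4 of 5 for Pdzrn4.

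Prokr2 encodes a receptor for the secreted prokineticins. It stood at 7.89 and 8.47 in KO, against 11.35 and 10.42 in WT, and fell by 2.71 (SE 0.40, limma adjusted p = 0.0406). The KO arrays lay closer together than the WT arrays, and the genotypes did not overlap. Ntng1, which encodes the netrin-G1 protein anchored to the membrane of thalamocortical axons, was at 6.03 and 7.95 in KO against 11.00 and 10.35 in WT. Its difference of -3.68 (SE 0.59) just missed the threshold at an adjusted p of 0.05001. Rora, an orphan nuclear receptor gene, was undetected on both KO arrays (5.22 and 4.93) against 8.92 and 6.11 in WT. Its WT arrays lay far apart, and the adjusted p was 0.174. Igsf21 and the LIM homeobox gene Lhx2 had differences of -1.30 (adjusted p = 0.107) and -0.51 (adjusted p = 0.401).

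The promoters of 3 marker genes are shown because these genes carry the comparison: Pdzrn3 and Prokr2 were lower and Irx2 higher in KO. They are RefSeq sequences of build GRCm38.p6, each of 300 bases with 250 before and 50 after the gene's start, and are written in the gene's own direction. Pdzrn3 lies at chr6:101377848-101378147 on the minus strand, Prokr2 at chr2:132385398-132385697 on the minus strand and Irx2 at chr13:72628570-72628869 on the plus strand. Capitals mark TAAT, the core that many homeodomain proteins bind, read on both strands (TAAT or ATTA).
Pdzrn3 promoter: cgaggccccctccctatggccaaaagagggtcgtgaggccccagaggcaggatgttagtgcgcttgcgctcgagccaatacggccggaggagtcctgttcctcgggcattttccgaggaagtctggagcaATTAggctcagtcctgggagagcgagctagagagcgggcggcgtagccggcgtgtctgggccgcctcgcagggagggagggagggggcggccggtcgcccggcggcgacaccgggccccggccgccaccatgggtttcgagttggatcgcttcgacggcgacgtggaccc
Prokr2 promoter: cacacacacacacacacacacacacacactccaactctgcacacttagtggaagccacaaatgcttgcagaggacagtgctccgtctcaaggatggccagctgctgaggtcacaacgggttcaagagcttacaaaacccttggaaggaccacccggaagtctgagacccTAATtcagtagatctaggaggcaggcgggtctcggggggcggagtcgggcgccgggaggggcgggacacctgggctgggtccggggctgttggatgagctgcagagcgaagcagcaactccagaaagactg
Irx2 promoter: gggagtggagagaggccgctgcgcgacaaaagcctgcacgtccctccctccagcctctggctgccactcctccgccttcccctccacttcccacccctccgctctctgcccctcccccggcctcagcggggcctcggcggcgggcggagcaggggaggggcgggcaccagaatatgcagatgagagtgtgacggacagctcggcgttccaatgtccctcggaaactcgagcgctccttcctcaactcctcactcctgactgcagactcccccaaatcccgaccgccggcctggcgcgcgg
The core occurs 1 time each in the windows of Pdzrn3, Prokr2 and Pth2, and in 0 places in those of Wif1 and Irx2. It is found in 58% of the 32851 promoters of the table, and the longer TAATTA, which contains the core on both strands, in 5.29% of them and in 0 of these 5. Pdzrn3 and Irx2 windows are rich in G and C (68.7% and 69.0%, against a median of 52.7% over all promoters), and those of Pth2 are not (52.3%).

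Among habenular and Wnt pathway genes, changes went both ways. Of 7 measured habenular genes 5 were positive, with a median of 1.03, and 1 of the 7 passed the test by its brightest probe, lower in KO (Wif1). Of 15 Wnt pathway genes 10 were positive, with a median of 0.42, and 2 passed: Shisa2 rose and Wif1 fell. Over all of chip 2 the Wnt list leaned the other way, with 21 of 46 genes positive and a median of -0.21. Habenular genes over all of chip 2 were positive in 18 of 27 cases, with a median of 0.65.

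Wif1 encodes a secreted protein that binds Wnt ligands and inhibits them. It was at 6.87 and 7.35 in KO, against 9.52 and 9.94 in WT. The genotypes lay well apart, and it fell by 2.62 (SE 0.32, limma adjusted p = 0.0243). Shisa2 belongs to a family whose founding frog member retains Wnt and FGF receptors inside the cell. Its called probe was at 9.64 and 9.72 in KO, against 6.63 and 6.45 in WT. With replicates nearly equal in each genotype, it rose by 3.14 (SE 0.28, limma adjusted p = 0.00743), the largest rise among the members called. A second Shisa2 probe was at 6.06 and 6.43 in KO against 4.88 and 4.93 in WT, where it was undetected, at least 1.39-fold higher in KO (adjusted p = 0.0996). Rspo1, which encodes a secreted amplifier of Wnt signals, was at 8.42 and 8.07 in KO against 6.86 and 6.11 in WT, a difference of 1.76 (adjusted p = 0.0836).

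Irx2 encodes an Iroquois homeobox transcription factor, and 4 probes measured it. All 4 were higher on every KO array than on any WT array, by 1.82 to 2.44. The called probe was at 8.72 and 8.28 in KO, against 6.27 and 5.86 in WT, and rose by 2.43 (SE 0.32, limma adjusted p = 0.0289). The brightest probe was at 13.47 and 13.58 in KO, against 10.91 and 11.73 in WT, with a difference of 2.20 and an adjusted p of 0.05001. The joined probe printed above was at 9.64 and 9.82 in KO against 6.77 and 7.81 in WT, also with an adjusted p of 0.05001. The last was at 12.38 and 12.81 against 10.15 and 11.40 (adjusted p = 0.11). The related Irx3 was at 11.82 and 11.49 in KO against 10.10 and 11.04 in WT (difference 1.09, adjusted p = 0.203). Irx5 overlapped between genotypes, at 10.35 and 10.17 in KO against 9.24 and 10.71 in WT. Robo3, an axon guidance receptor gene, was at 7.16 and 6.29 in KO against 5.27 and 5.57 in WT, where it was undetected, at least 1.94-fold higher (adjusted p = 0.142). Of the 27 homeobox genes measured 14 were positive and 13 negative, with a median of 0.02, and by its brightest probe none passed.

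Pth2 and Prokr2 fell among the peptide genes. Of 11 neuropeptides, peptide hormones and their receptors 8 were negative, with a median of -0.42, and only these 2 passed. Pth2, which encodes the neuropeptide TIP39, was at 5.77 and 6.57 in KO, against 8.93 and 10.54 in WT. Only 1 KO array detected it, the WT arrays differed by more than the KO arrays did, and it fell by 3.56 (SE 0.54, limma adjusted p = 0.0431). The other gene is Prokr2, given above. Npy, the gene of neuropeptide Y, was at 5.74 and 7.88 in KO against 8.09 and 7.89 in WT. Its genotypes were only just apart (difference -1.18, limma adjusted p = 0.356).

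Grin2b, Kcnip1 and Hpcal4 fell among genes of excitability. Of 7 neurotransmitter receptor genes 6 were negative and 1 passed. Grin2b, an NMDA receptor subunit gene, was at 6.46 and 7.24 in KO, against 9.52 and 9.49 in WT. It fell by 2.65 (SE 0.34, limma adjusted p = 0.0278), and the gap between genotypes exceeded that between the KO arrays. Of 19 potassium, sodium and calcium channel genes 16 were negative, with a median of -0.49, and 1 passed. Kcnip1, a calcium-binding partner of potassium channels, was undetected in KO (5.08 and 5.05), against 7.24 and 8.07 in WT, which is at least 3.55-fold lower (limma adjusted p = 0.0336). Hpcal4, of the neuronal calcium sensor family, was also undetected in KO (5.49 and 5.66), against 7.35 and 7.69 in WT, at least 3.24-fold lower (limma adjusted p = 0.0435).

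Other called signalling genes followed no single direction. Gpr176, an orphan G protein-coupled receptor gene, was undetected in KO (5.36 and 5.75) against 8.70 and 8.20 in WT, at least 6.14-fold lower (limma adjusted p = 0.0176). Trhde, which encodes an enzyme that degrades thyrotropin-releasing hormone, was undetected in KO (4.90 and 4.87) against 7.17 and 8.33 in WT, at least 3.79-fold lower (limma adjusted p = 0.037). Both were at background on the KO arrays and passed the detection rule through the WT arrays alone. The kinase gene Sgk1 was at 9.55 and 10.04 in KO against 11.84 and 12.22 in WT, and fell by 2.23 (SE 0.32, limma adjusted p = 0.0377). Wnk3, which encodes a kinase that regulates chloride cotransporters, was at 7.90 and 7.75 in KO against 5.53 and 5.79 in WT, and rose by 2.17 (SE 0.29, limma adjusted p = 0.0315).

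Of 32 genes of glycan and sulfate enzymes 24 were negative, with a median of -0.27, and 1 passed. Hs6st2, a sulfotransferase gene of heparan sulfate, was at 7.19 and 7.98 in KO, against 11.40 and 11.42 in WT. The WT arrays were nearly equal, and it fell by 3.82 (SE 0.35, limma adjusted p = 0.00743). Has3, a hyaluronan synthase gene outside that list, was at 5.31 and 6.34 in KO against 9.16 and 8.39 in WT, and fell by 2.96 (SE 0.43, limma adjusted p = 0.0403). Samd5, a gene named for its sterile alpha motif, was at 6.60 and 7.04 in KO against 10.35 and 10.09 in WT. It fell by 3.40 (SE 0.31, limma adjusted p = 0.00743), with no overlap.

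Adhesion genes had mostly negative differences, but none of them passed the test. Of 22 cadherins and protocadherins 18 were negative, with a median of -0.72, and 9 were lower by 1 or more with separated arrays, as were 5.07% of all probes tested. Pcdh19 was at 6.39 and 6.84 in KO against 8.26 and 8.92 in WT (difference -1.98, adjusted p = 0.0661). Of 16 axon guidance genes 9 were positive and 7 negative, with a median of 0.26. One of the negative ones, Plxna4, a semaphorin receptor gene, was at 5.19 and 6.59 in KO against 8.54 and 8.57 in WT (difference -2.67, adjusted p = 0.061). The synaptic organiser C1ql2 was undetected in KO (5.09 and 5.28) against 7.89 and 10.39 in WT, at least 9.91-fold lower. Its WT arrays lay far apart, and the adjusted p was 0.0662.

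Ska3 and Zwilch rose among genes of cell division, Zwilch not by its brightest probe. Of 38 measured genes of the cell cycle and DNA replication 36 were positive, with a median of 1.27, and 1 of the 38 passed by its brightest probe. Of them, 23 were higher by 1 or more with separated arrays, as were 5.91% of all probes tested. The list mean was 9.81 and 9.18 on the KO arrays, against 8.27 and 8.31 on the WT arrays, so KO replicate 3 was farther from WT than KO replicate 4. Over all of chip 2, 107 of 111 genes of this list were positive, with a median of 1.43, and 4 were called. The number of positive members was also 36 under each of 5 other background or scaling choices, with medians of 0.87 to 1.29.

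Ska3 encodes a protein of the spindle and kinetochore. It was at 9.25 and 8.96 in KO, against 6.82 and 7.28 in WT, and rose by 2.05 (SE 0.31, limma adjusted p = 0.0435). Zwilch encodes a kinetochore protein of the spindle checkpoint, and its called probe was at 8.27 and 7.40 in KO against 5.36 and 5.55 in WT, where it was undetected. It was at least 4.20-fold higher (limma adjusted p = 0.0434), and its other 2 probes differed by 2.09 and 1.72 without passing (adjusted p = 0.101 and 0.129). Among members that did not pass, the replication gene Mcm3 was at 11.47 and 10.52 in KO against 9.05 and 8.87 in WT (difference 2.04, adjusted p = 0.0713). Pcna, the sliding clamp of replication, was at 9.88 and 9.49 in KO against 8.51 and 9.05 in WT (difference 0.90, adjusted p = 0.217).

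Of 23 histone genes 18 were positive, with a median of 0.88, and none passed. H2ac21 was at 12.01 and 11.95 in KO against 10.59 and 10.80 in WT (difference 1.29, adjusted p = 0.0996). Histone genes share long stretches of sequence, so a probe's signal may be split between near-identical copies. H3f3b, a replacement histone gene outside the replication-linked clusters, was at 8.97 and 9.22 in KO against 9.78 and 10.52 in WT (difference -1.05, adjusted p = 0.184). Of 11 pan-neuronal genes 9 were negative, with a median of -0.57, and none passed; Nefm, a neurofilament gene, was at 10.41 and 11.52 in KO against 9.92 and 9.0 in WT (difference 1.50, adjusted p = 0.166). Ribosomal protein genes lay close to 0, with a median of -0.09 over 47 genes.

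**Figure D3:**
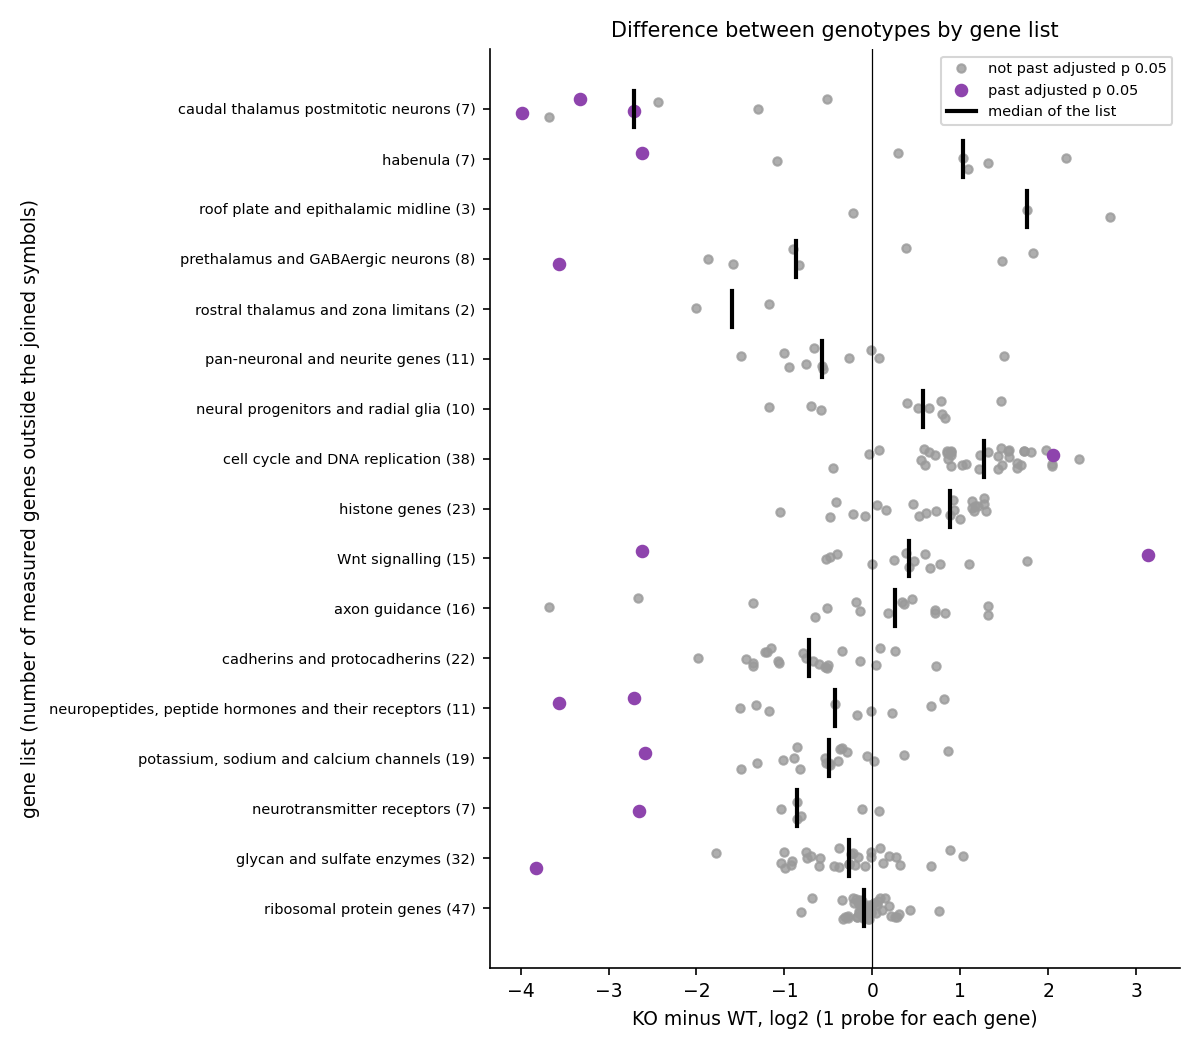
Log2 difference KO minus WT (horizontal axis) of each measured gene, 1 probe a gene, for 17 gene lists (vertical axis, number of genes in brackets). Bars are list medians and large dark dots genes past adjusted p 0.05; the caudal thalamus list has its median at -2.71, the cell cycle list at 1.27 and ribosomal protein genes at -0.09.

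The remaining called genes fell outside these groups. Mboat1, a lysophospholipid acyltransferase gene, was at 7.27 and 6.93 in KO, against 5.13 and 5.26 in WT, where it was undetected, at least 2.51-fold higher (limma adjusted p = 0.0458). Rbm43, which encodes an RNA-binding motif protein, was at 7.58 and 7.24 in KO against 5.06 and 5.07 in WT, at least 3.12-fold higher (limma adjusted p = 0.0257). Both were at background on the WT arrays and passed the detection rule through the KO arrays alone. Zscan2, a zinc finger gene, was undetected in KO (5.22 and 4.95) against 6.97 and 7.09 in WT, at least 2.30-fold lower (limma adjusted p = 0.0424), and its other probes did not pass: one, also undetected in KO, was at least 1.72-fold lower (adjusted p = 0.129), and the other differed by -0.57 (adjusted p = 0.457). Lrrc40, a leucine-rich repeat gene, fell by 2.0 on 1 probe (limma adjusted p = 0.0417) and differed by -0.11 on another that shares no run of 15 bases with it (adjusted p = 0.897). Another 6 called probes, all lower in KO, have only clone or predicted gene names. One of them, Gm5292, was undetected in KO (5.03 and 5.52) against 9.35 and 10.26 in WT, at least 15.7-fold lower (limma adjusted p = 0.00606). Of the 26 lower probes 11 were undetected on both KO arrays, and of the 7 higher ones 3 were undetected on both WT arrays. These probes passed the detection rule through the other genotype alone, and their folds are bounds.

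Other gene groups held no call by their brightest probe. Of 12 BMP and TGF-beta genes 9 were positive (median 0.61), against 23 of 46 over all of chip 2 (median 0.02). Of 10 progenitor genes 7 were positive (median 0.58), of 16 collagens and matrix genes 10 (median 0.07), of 177 zinc finger genes 67 (median -0.11), of 69 solute carriers 28 (median -0.12) and of 91 cilium genes 50 (median 0.12). The progenitor and Notch pathway gene Hes1 had a difference of 1.46 (adjusted p = 0.11). Zic5, a roof plate zinc finger gene, was at 9.68 and 8.51 in KO against 7.93 and 4.87 in WT. Its WT arrays lay far apart, with only 1 of them detected, and its difference was 2.70 (adjusted p = 0.184). Islr2, an immunoglobulin and leucine-rich repeat gene of growing axons, had a difference of 1.83 (adjusted p = 0.0555). Islr2 was at 11.14 and 11.57 in KO against 9.60 and 9.46 in WT, with no overlap. Dlx1, a forebrain homeobox gene of inhibitory neurons, had a difference of 1.47 (adjusted p = 0.0854), and Bax, which promotes cell death, one of -1.97 (adjusted p = 0.0686).

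With the calls included, 370 member probes were higher by 1 or more (log2) with separated arrays (5.43%, against 5.91% of all probes tested), and 338 were lower (4.96%, against 5.07%). KO replicate 3 was farther from the WT mean than KO replicate 4 in 327 of the 370 and in 275 of the 338. The median distance from the WT mean of the higher probes was 1.62 on KO replicate 3 and 1.02 on KO replicate 4. That of the lower probes was -1.62 and -1.05. Over the levels of all tested probes, KO replicate 4 correlated with KO replicate 3 at 0.968 and with WT replicate 3 at 0.971. Of 1100 member genes with more than 1 probe tested, 59 had 2 or more probes past this size rule. Of these, 36 were higher and 23 lower on all of those probes. The matching count over all of chip 2 was not made, so these numbers are not particular to the members. Cdc20, an activator of the mitotic ubiquitin ligase, was higher by 1.29 to 1.56 on 4 probes (lowest adjusted p = 0.0848), and Gjd2, a gap junction gene of neurons, lower by 2.30 to 2.44 on 2 (lowest adjusted p = 0.117), with a difference of -0.46 on its remaining dim probe.

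**Figure D4:**
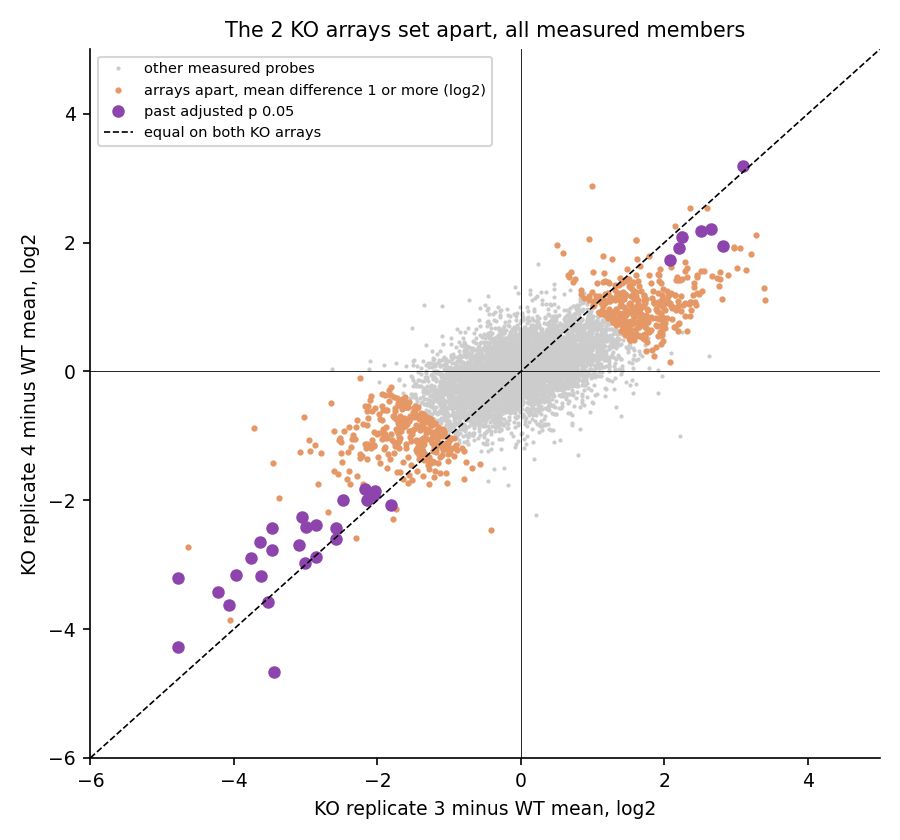
Log2 level on KO replicate 3 (horizontal axis) and on KO replicate 4 (vertical axis), each minus the WT mean, for the 6811 member probes. The dashed line marks equal differences; most separated probes lie on the side of the line nearer the horizontal axis, as 327 of 370 higher and 275 of 338 lower probes were farther from WT on KO replicate 3.

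Sex-linked genes differed between arrays. Eif2s3y, a Y-linked gene, was at 4.73 on KO replicate 3 and 10.10 on KO replicate 4, against 10.95 and 11.70 on the WT arrays, and Xist was at 12.92 and 10.82 on the KO arrays, against 10.61 and 4.81 on the WT arrays. Ddx3y, another Y-linked gene, was detected on all 4 arrays, at 10.32 and 11.33 in KO against 11.06 and 11.44 in WT. No member gene belongs to the Y-linked and Xist list. The part of sex in the calls was not tested. Markers of other regions also moved with genotype in their summed signal over chip 2: telencephalic markers (11 genes tested) summed to 7782 and 9841 in KO against 3331 and 4551 in WT, and hypothalamic markers (8 genes) to 6742 and 12657 in KO against 21504 and 36628 in WT. Gene by gene, however, 5 of these 8 hypothalamic genes were positive, with a median of 0.37, and 7 of the 11 telencephalic ones, with a median of 0.20. Erythroid markers (15 genes) overlapped, at 137549 and 176303 in KO against 143274 and 209370 in WT, as did microglial ones (21 genes). The part of these markers in the results was not tested.

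The outlier arrays, numbered 5, stood between or beyond the other arrays at the called probes, with WT replicate 5 closer to the KO mean than to the WT mean at 20 of the 26 lower and 4 of the 7 higher probes. With all 6 arrays of the chip normalized together, the 26 lower probes on KO replicate 5 lay a median of 61.7% of the way from the WT mean to the KO mean, and those on WT replicate 5 81%. For the 7 higher probes these were 41.4% and 73.4%. WT replicate 5 lay beyond KO replicate 5 in the called direction at 15 of the 26 lower and 4 of the 7 higher probes. Pth2 was at 7.98 on KO replicate 5 against 5.64 on WT replicate 5. Every called Pdzrn4 probe was also higher on KO replicate 5 than on WT replicate 5, the brightest at 10.61 against 8.93. Ska3 was at 7.87 against 8.82 and the called Zwilch probe at 5.78 against 7.19, the reverse of their calls. The brightest Irx2 probe kept its direction, at 13.43 against 11.60. With these arrays included, 1 of the 33 probes passed (Gm5292, limma adjusted p = 0.0162), and 319 member probes had an unadjusted limma p under 0.05. All 33 kept their sign, but the arrays that had selected them still entered these means.

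Many of these probes were also hybridised on chip 1, with KO replicates 1 and 2 and WT replicates 1 and 2, and those values entered no call. Of the 33 called probes 14 were found there, and 9 of these were detected on 2 or more chip 1 arrays. In 8 of the 9 the KO and WT arrays of chip 1 did not overlap and lay in the same direction as on chip 2. On chip 1 as a whole 25.9% of such probes had both KO arrays above both WT arrays and 17.8% had them below. The brightest Pdzrn4 probe was at 6.25 and 6.12 in KO, against 9.04 and 9.83 in WT. Hs6st2 was at 5.97 and 5.45 in KO against 7.66 and 7.81 in WT, and Samd5 at 5.48 and 6.12 against 7.93 and 8.26. These genes were lower on both KO arrays than on both WT arrays of each chip. Shisa2 was at 7.60 and 7.77 in KO against 5.90 and 6.26 in WT. Mboat1 was the exception, at 5.75 and 5.74 in KO against 5.70 and 5.92 in WT. The joined Irx2 probe was at 7.50 and 7.21 in KO against 6.15 and 5.80 in WT. Differences on chip 1 were smaller, with a median ratio to chip 2 of 0.53 over the 9 probes. These probes had been selected by large differences on chip 2, which favours smaller ones on any other arrays. The ratio therefore does not compare the chips. Over the 2650 member probes detected on 2 or more chip 1 arrays, 67.1% had the same sign on both chips.

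**Figure D5:**
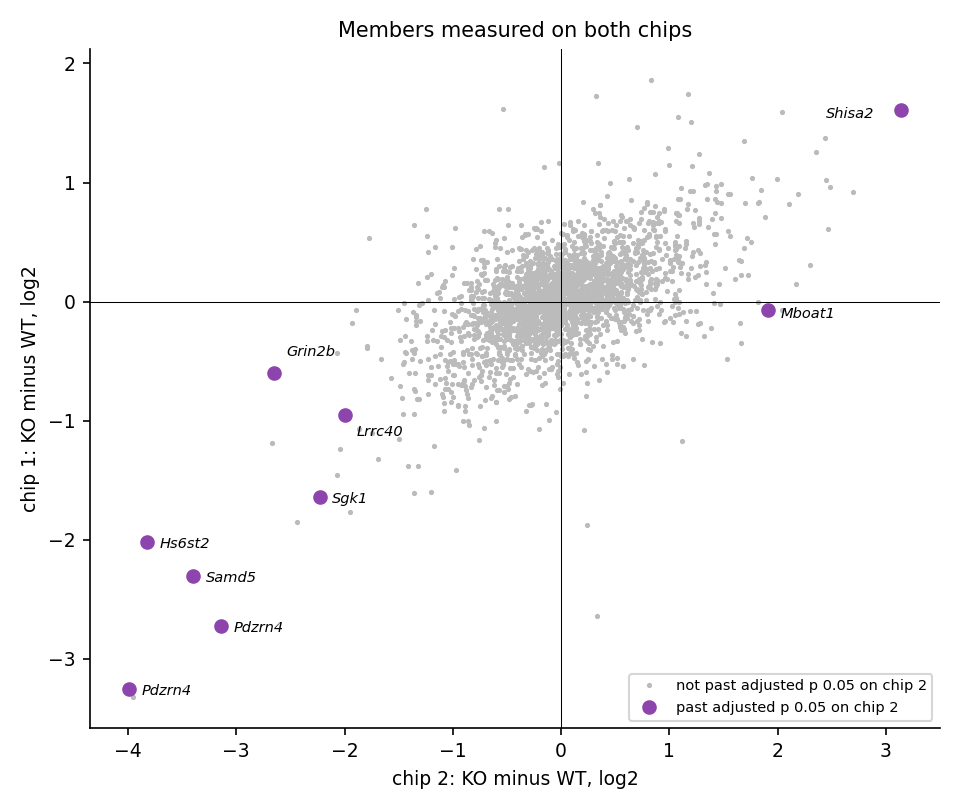
Log2 difference KO minus WT on chip 2 (horizontal axis, replicates 3 and 4) and on chip 1 (vertical axis, replicates 1 and 2) for the 2650 member probes detected on 2 or more chip 1 arrays. Large dots are the 9 probes past adjusted p 0.05 on chip 2, and all but Mboat1 have the same sign on both chips.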

How the data were processed

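RNA of microdissected thalamus was hybridised to Illumina bead arrays, and groups and replicate numbers come from the labels. The chip 2 table holds bead intensity per probe, exported by the authors from GenomeStudio 1.1.1 without normalization, per the file headers. The deposited detection columns are headed as p-values but hold a fraction between 0 and 1, and it is highest for the brightest probes. The detection p passed to neqc was therefore 1 minus that fraction. The deposited normalized table holds log2 values, whose making the sources used here do not describe. BeadStudio and lumi are also listed, per the submitters' processing notes.

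Chip 2 signals were processed in R 4.3.3 by limma 3.58.1, with its neqc function (normexp by detection p, offset 16, quantile normalization, log2), for the 4 retained arrays. KO and WT were compared with lmFit and eBayes, two-sided, without a block, with Benjamini-Hochberg adjustment over the 21369 probes detected above 0.95 on at least 2 arrays. For a probe undetected on both arrays of a genotype, the fold printed is a bound, the brighter genotype's mean against, per array, the higher of the faintest detected level and its own. Chip 1 was normalized separately and gave values only. That comparison, and the counts for probes on chip 2 only, were added after seeing the data.

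Of the member probes, RefSeq GRCm38.p6 named 2592 through an accession, 1871 through the symbol itself and 1368 through an older synonym, and 980 kept the name in the file. A gene in 1 of the 46 lists is represented by its brightest probe, and matches by name pattern to Htra2 and the Rps6k genes were dropped. Named genes are the markers, the 15 largest rises and falls among called genes, and of each list up to 4 called genes or the 2 with the smallest p. Pcna, Irx3, Robo3, Rora, Igsf21, Lhx2, H3f3b, Cdc20, Mcm3, Gjd2, Lrrc40, Zwilch, Zscan2 and Gm5292 were named after their values were seen. The members and lists were chosen with earlier results of these data known. The number of arrays limits the precision. The code was run on simulated data with noise independent between arrays, which says nothing about the distance between the KO arrays. No result given here rests on that run. Tables were made with pandas 2.3.3 and figures with matplotlib. Alternatives were other background, scaling, filter and variance choices, each array left out, replicate 5 included and the deposited normalized values.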

Additional observations from a re-analysis of the deposited data

How the results depend on the processing

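Counts of called probes, higher and lower in KO, depended on the processing. All 33 member probes called kept their sign wherever they were tested. Each setting reused arrays that had selected these probes, so the kept sign is no separate support. Against 7 and 26 for members and 21 and 91 for all chip 2 probes, an offset of 50 gave 19 higher members and 62 higher probes in all, and cyclic loess 19 and 70. No background correction gave 3 and 13 for members and 46 lower in all, and median scaling 148 lower in all, with the median of all tested probes at -0.10. Including replicate 5 gave 0 and 1 for members and 2 and 2 in all. Without a detection filter there were 0 calls by limma (0 higher and 0 lower, members and all), with 1690 members at an unadjusted p under 0.05; detection on all 4 arrays gave 2 and 9 for members and 8 and 33 in all; detection on both arrays of 1 genotype gave 11 higher members. Trend and robust eBayes gave 34 and 43 for members and 130 and 169 in all, and an adjusted p under 0.1 gave 59 and 64, and 217 and 251. One probe a symbol gave 13 higher in all, the deposited normalized values 12 higher members (of 3376 held) and 86 in all, and members on chip 2 only 3 and 14.

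Leaving out 1 array at a time, where the lone array is assumed to vary like the other genotype, gave 0 to 106 higher and 0 to 84 lower members, and 0 to 366 and 0 to 323 in all. The lowest counts came without KO replicate 3 and the highest without WT replicate 3; without KO replicate 4 members counted 34 and 46, and without WT replicate 4 23 and 37. With the replicate number as a block, members counted 366 and 331 and all probes 1264 and 1077; same-numbered arrays deviated together with a correlation of 0.151, and the labels do not say that a number marks a shared litter or day, so this pairing is no part of the design. The cause of these changes was not tested. Dim probes limit what can be seen: of the probes outside the joined symbols, 7396 were detected on no array.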
